A study of Mus musculus with 4 samples.

Results

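Crabp2, Pros1, Ifitm1, Ifitm2 and Ifitm3 were read in stimulated CD4+ T cells of WT and R111A mice. These 5 genes were taken from the 16142 genes of the expression table by their symbols, and all 5 were present. Crabp2, Pros1 and Ifitm2 were picked for their strong fall in R111A cells, from the same values that are described here, so their fall is a description with no test. Ifitm1 and Ifitm3 were listed as paralogues of Ifitm2. The group was proposed as a set of lost genes, and Ifitm1 goes against this: it was higher, not lower, in both R111A libraries.

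The study asked about the role of Regnase-1, a ribonuclease that degrades mRNAs of activated immune cells, in Foxp3+ regulatory T cells (Tregs). R111A is a mutant of Regnase-1 (encoded by Zc3h12a) that the protease MALT1 no longer cuts after T cell receptor signaling. It was expressed as a transgene marked with EGFP, from the CAG promoter in the Rosa26 locus behind a floxed Stop cassette. The R111A group came from Cd4CreERT2 LSL-R111A fl/fl mice given tamoxifen i.p. on 5 days at a dose of 75 mg/kg, so that Cre driven by Cd4 opened the transgene in T cells. The WT group came from WT B6 mice with neither Cre nor transgene. The labels give tamoxifen in a phrase that follows both groups, and it was read here as given to both. Effects of Cre and of the transgene cannot be told apart here. Mice in the study were 6 to 12 weeks old unless stated otherwise, and the ages of these animals are not given. Splenic CD4+ T cells of both groups were isolated by FACS and then kept for 12 h with antibodies to CD3 (5 µg/mL) and CD28 (1 µg/mL) as the stimulus. There were 2 libraries per group, and the labels do not say that they came from separate animals, so the p-values below measure the spread between these samples, which may be technical. Unstimulated cells were not analysed here.

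CRABP2 is a small cytosolic protein that binds retinoic acid, the active form of vitamin A, and carries it to the nuclear retinoic acid receptors. FABP5 is a relative that can bind retinoic acid too. PROS1 is protein S, a vitamin K-dependent plasma protein known as a cofactor of activated protein C in anticoagulation and as a ligand of the TAM receptor kinases TYRO3, AXL and MERTK. Activated T cells make it as well, and there it can restrain dendritic cells through TAM receptors. The IFITM proteins are small membrane proteins that hinder the fusion of enveloped viruses with the cell membrane or with endosomes. They are classical interferon-stimulated genes, and mouse Ifitm1, Ifitm2 and Ifitm3 lie in 1 cluster on chromosome 7.

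Expression was given as FPKM, a fragment count divided by transcript length and library size, so levels may be compared between genes. Summed over all genes, a library held 801475 FPKM (WT replicate 1), 836143 FPKM (WT replicate 2), 1053551 FPKM (R111A replicate 1) or 1012215 FPKM (R111A replicate 2). How many reads stand behind a value is not known. Ratios of low values, between 0.1 and 0.6 FPKM, put WT replicate 1 level with WT replicate 2 in depth and 1.06-fold and 1.19-fold above R111A replicates 1 and 2, rough figures because the values are rounded to 2 decimals. Differences were fitted with limma on log2(FPKM + 1) over the 9831 genes whose mean reached 1 FPKM, and a log2 fold change here is R111A minus WT on that scale, which understates the change of low genes. Calls needed an adjusted p below 0.05 and a change of 2-fold or more on that scale, which is meant wherever a change is said to be under 2-fold. By this rule 820 genes were called lower (8.34% of those tested) and 838 higher (8.52%). With each library rescaled to TPM, the split was 1756 lower and 580 higher, so that 24.8% of the calls were higher, against 50.5% without rescaling. Scaling by median-of-ratios factors moved the split the other way, to 676 lower and 936 higher (58.1% higher). The median log2 fold change of all genes tested was -0.12, against -0.42 after rescaling to TPM and -0.03 with median-of-ratios factors.

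Zc3h12a itself checked the labels. It stood at 16.97 and 15.72 FPKM in WT, against 196.3 and 130.87 FPKM in R111A, and the values do not separate the transgene from the endogenous gene. All 10 T cell markers were above 1 FPKM in every library, with sums of 2280 and 2284 FPKM in WT, against 1968 and 1776 FPKM in R111A, and 2 of them were called lower and 1 higher, beside 8.34% and 8.52% of all genes tested. Cd3e was at 171.94 and 157.47 FPKM in WT, against 179.52 and 134.57 FPKM in R111A. Thy1 fell from 96.47 and 98.09 FPKM to 25.54 and 25.11 FPKM (log2 fold change -1.90, adjusted p = 1.3e-05 from limma), and Trat1 rose from 5.11 and 4.7 FPKM to 20.47 and 28.43 FPKM (2.09, adjusted p = 3.8e-05 from limma). Cd4 was lower in R111A cells, at 70.69 and 51.35 FPKM against 157.54 and 131.28 FPKM in WT (log2 fold change -1.24, SE 0.18, adjusted p = 5.7e-04 from limma). Of the markers of CD8+ T cells, Cd8a stayed at or below 0.2 FPKM in each library, and Cd8b1 was at 7.21 and 6.56 FPKM in WT, against 3.86 and 4.39 FPKM in R111A (-0.62, not called). In bulk RNA, fewer cells of a type and less RNA per cell cannot be told apart.

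Crabp2 was by far the most abundant of the 5 genes in WT cells. It was listed at 152.77 and 156.91 FPKM in WT, against 16.53 and 21.37 FPKM in R111A. The WT replicates were close together and far above both R111A replicates. The group means were 154.8 ± 2.927 FPKM in WT and 18.95 ± 3.422 FPKM in R111A (SD, n = 2), so that the mean was 8.17-fold higher in WT. Taken library by library, the ratio of WT to R111A lay between 7.15 and 9.49. Within each library, 6.9% and 6.86% of the genes tested stood above Crabp2 in WT, and 44.7% and 37.9% in R111A. Crabp2 thus stood near the top of the genes tested in WT cells and near their middle in R111A cells, and it was still the highest of the 5 genes there. Its log2 fold change was -2.98 (SE 0.15).

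Pros1 and Ifitm2 started from a similar level and fell to a similar level. Pros1 was at 18.87 and 17.3 FPKM in WT, against 0.94 and 0.98 FPKM in R111A. Both R111A libraries were below 1 FPKM, where 98.0% and 98.1% of the genes tested stood higher. The mean went from 18.1 ± 1.11 FPKM to 0.96 ± 0.0283 FPKM (SD, n = 2), which is 18.8-fold higher in WT, with 17.65 to 20.07 for the pairs of libraries. The log2 fold change of Pros1 was -3.28 (SE 0.14).

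Ifitm2 was at 20.21 and 19.09 FPKM in WT, against 0.89 and 0.81 FPKM in R111A. The means were 19.65 ± 0.792 FPKM and 0.85 ± 0.0566 FPKM (SD, n = 2). This is 23.1-fold higher in WT, with 21.45 to 24.95 for the pairs of libraries, the largest ratio of means among the 5 genes. The log2 fold change of Ifitm2 was -3.48 (SE 0.14). With a pseudocount of 5 FPKM in place of 1, the log2 fold changes were -1.95 for Pros1 and -2.07 for Ifitm2, while Crabp2 stayed at -2.75. The size of the fall on the log2 scale thus rests on the pseudocount for these low genes, and Crabp2 then has the largest one.

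**Figure D1:**
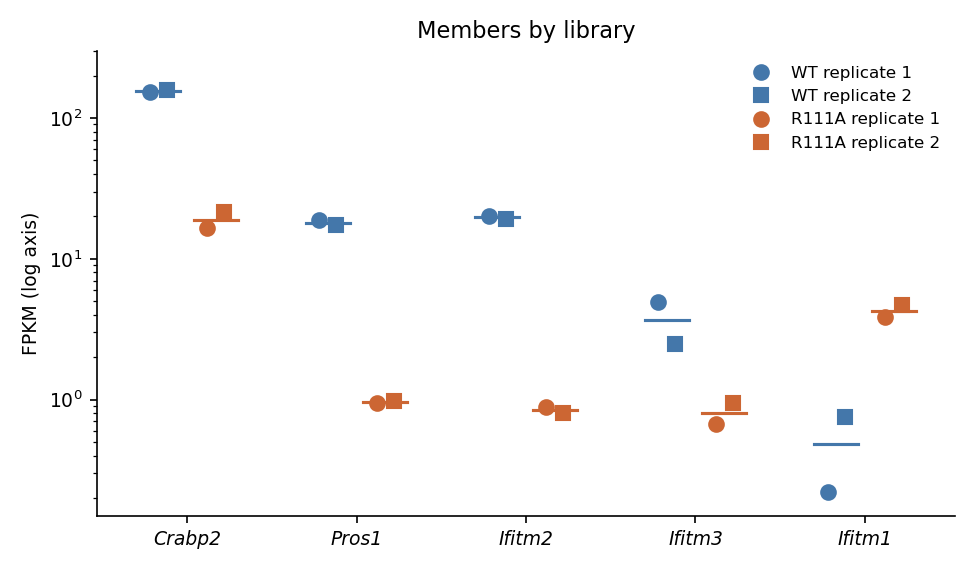
FPKM of the 5 genes (log axis) in each library, with WT in blue and R111A in orange, circles for replicate 1, squares for replicate 2 and a line at each group mean (n = 2). Ifitm1 is the gene with the R111A libraries on top (3.87 and 4.68 FPKM against 0.22 and 0.75 FPKM). Crabp2, Pros1 and Ifitm2 were picked for their fall in these same values.

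Ifitm3 was lower in R111A cells as well, but from a low level and with a wide spread. Its WT libraries read 4.91 and 2.47 FPKM, against 0.67 and 0.95 FPKM in R111A. The groups did not overlap, although, as a ratio, the WT replicates differed from each other more than those of Crabp2, Pros1 or Ifitm2 did. The ratio of WT to R111A was 4.56 for the means, and it ranged from 2.6 to 7.33 over the pairs of libraries. Its log2 fold change was -1.33 (SE 0.24), which was called lower, but it passed the filter through WT alone, so the call is a description. Without WT replicate 1 the change was -0.94, less than 2-fold, and without WT replicate 2 it was -1.71. With a pseudocount of 5 FPKM it was -0.57 and no longer 2-fold, and with 0.1 FPKM it was -2.0.

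Ifitm1 moved the other way. It was at 0.22 and 0.75 FPKM in WT, against 3.87 and 4.68 FPKM in R111A. Every R111A library was thus above every WT library, by 5.16-fold to 21.3-fold over the pairs and by 8.81-fold for the means. Its log2 fold change was 1.85 (SE 0.19), which was called higher, but it passed the filter through R111A alone, so the call is a description. It ranged from 1.59 to 2.11 when each library was left out. With a pseudocount of 5 FPKM it was 0.76 and no longer 2-fold, and with 0.1 FPKM it was 3.06.

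A filter on the mean bears on these values. All 5 genes passed it, but Pros1, Ifitm2 and Ifitm3 passed through WT alone and Ifitm1 through R111A alone, since their means in the other group were below 1 FPKM. Crabp2 was above 1 FPKM in both groups. A gene that passed through its higher group alone had to differ, as did 68 of the 820 genes called lower (R111A mean below 1 FPKM) and 244 of the 838 called higher (WT mean below 1 FPKM), Nqo1 among the latter.

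The makeup of the IFITM transcripts differed between the groups. Ifitm2 was picked for its fall in these same values, so its smaller share in R111A is largely built in. Both Ifitm2 and Ifitm3 were below 1 FPKM in the R111A libraries. Ifitm1, Ifitm2 and Ifitm3 together came to 25.3 and 22.3 FPKM in the WT replicates and to 5.43 and 6.44 FPKM in the R111A replicates. Ifitm2 held 79.8% and 85.6% of that sum in WT, against 16.4% and 12.6% in R111A. Ifitm1 held 0.868% and 3.36% in WT, against 71.3% and 72.7% in R111A. Ifitm3 kept a minor share, with 19.4% and 11.1% in WT and 12.3% and 14.8% in R111A.

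**Figure D2:**
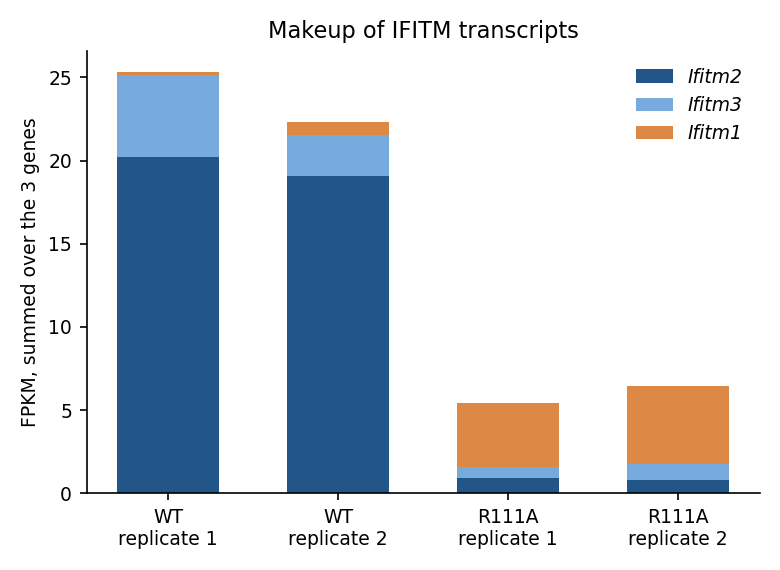
Stacked bars of FPKM for Ifitm2 (dark blue), Ifitm3 (light blue) and Ifitm1 (orange) in each of the 4 libraries. The WT bars reach 25.3 and 22.3 FPKM and are mostly Ifitm2, and the R111A bars reach 5.43 and 6.44 FPKM and are mostly Ifitm1.

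In the order of levels in WT cells, Crabp2 came first, Ifitm2 (19.09 to 20.21 FPKM) and Pros1 (17.3 to 18.87 FPKM) followed with ranges that almost met, and then came Ifitm3 and Ifitm1. In R111A cells the order was Crabp2, Ifitm1, and then Pros1, Ifitm2 and Ifitm3, of which the last overlapped with both others. Crabp2 and Ifitm1 were each apart from the next gene in R111A cells by more than the spread of their replicates.

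Among the 9831 genes tested, ordered from the largest fall, Ifitm2 was number 2, Pros1 number 4, Crabp2 number 8 and Ifitm3 number 359, and Ifitm1 was number 239 from the other end. Il2 stood before Ifitm2 with a log2 fold change of -4.56. Pim2 (-3.29) stood between Ifitm2 and Pros1, and Hells (-3.24) after Pros1. Crabp2 stood between Dtl (-3.06) and Cish (-2.95). Crabp2, Pros1 and Ifitm2 were selected on their fall in R111A cells, in these same FPKM values. The neighbours were chosen by their place in the order of the same log2 fold changes. Closeness to the neighbours is thus largely built in, and the gaps were not tested. Ifitm3 stood between Fbxw8 and Thop1, both at -1.33, and Ifitm1 between Polk and Hspa1b, both at 1.85.

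**Figure D3:**
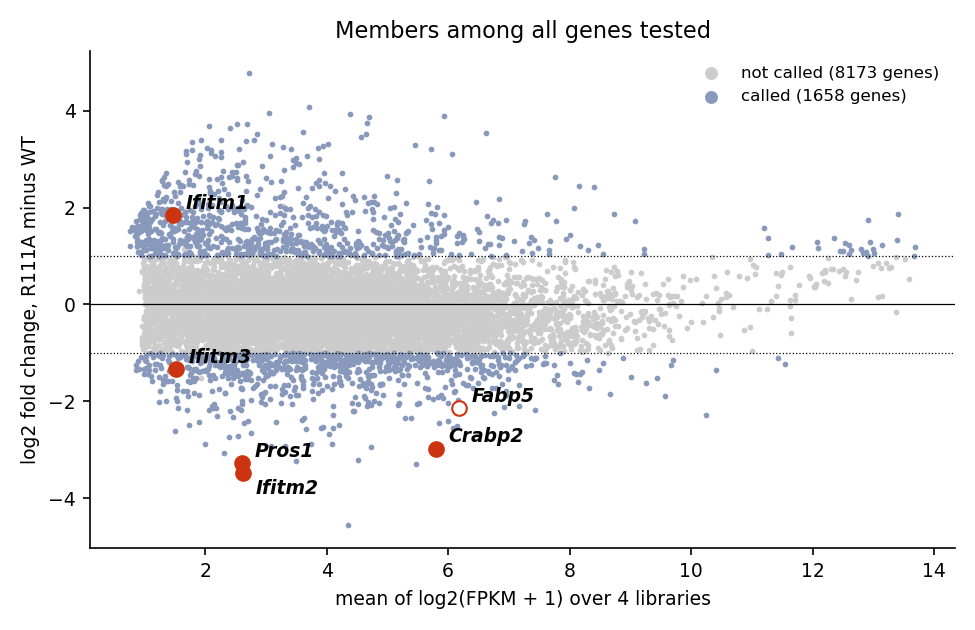
Log2 fold change (R111A minus WT) of each of the 9831 genes tested against its mean log2(FPKM + 1) over 4 libraries, with the 1658 called genes in blue, the others in gray and dotted lines at 2-fold. The 5 genes are the red dots and Fabp5 is the open circle; Pros1 (-3.28), Ifitm2 (-3.48) and Crabp2 (-2.98) lie at the lower edge and Ifitm1 (1.85) lies above 0.

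Genes with the most similar levels over the 4 libraries were found by Euclidean distance in log2(FPKM + 1). Pros1 and Ifitm2 were the nearest to each other of all genes tested, at a distance of 0.21. The next nearest to both were Dtl (0.66 from Pros1 and 0.79 from Ifitm2) and Fignl1 (0.77 and 0.95). The nearest to Crabp2 were Mcm5 (0.26), Mcm3 (0.42) and Cdca7 (0.7). Mcm5 was at 157.89 and 155.34 FPKM in WT, against 19.6 and 19.84 FPKM in R111A, nearly the levels of Crabp2. For Ifitm3 they were Tctn3 (0.54), Cdc6 (0.58) and Ncapg2 (0.59), and for Ifitm1 Slc27a3 (0.33), Piwil2 (0.4) and Cldn15 (0.41). With 4 libraries in 2 groups, such distances reflect a level in each group and little else.

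The genes lie at 3 places in the genome (RefSeq, GRCm38, the assembly of mm10, with exons counted in a GENCODE transcript). Crabp2 (NCBI gene 12904) is on chromosome 3 from 87948693 to 87953372, on the plus strand, with 4 exons. Pros1 (gene 19128) is on chromosome 16 from 62854307 to 62929346, on the plus strand, with 15 exons. On chromosome 7, Ifitm2 (gene 80876) runs from 140954837 to 140959686 on the minus strand, Ifitm1 (gene 68713) from 140967429 to 140969827 on the plus strand and Ifitm3 (gene 66141) from 141009590 to 141010744 on the minus strand. Thus Ifitm1, the gene that was higher in R111A cells, lies between Ifitm2 and Ifitm3, 7743 bases from Ifitm2 and 39763 bases from Ifitm3.

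The other genes next to them in the table moved less. Crabp2, Pros1 and Ifitm2 were picked for their strong fall, so smaller changes beside them are largely built in. Of 3 genes on each side of Crabp2, Nes was below the filter, and the others (Mrpl24, Rrnad1, Isg20l2, Gpatch4 and Naxe) had log2 fold changes from -0.37 to 0.12, none of them 2-fold. Around Pros1, Epha3 was below the filter and Arl6, Nsun3, Arl13b, 4930453N24Rik and Zfp654 had values from -0.53 to 0.23, none of them called. The lowest was Arl13b (adjusted p = 0.017 from limma), and beside Crabp2 it was Naxe (adjusted p = 0.043 from limma). At the IFITM cluster, Ifitm5 and Ifitm6 were listed at 0 in all 4 libraries and Nlrp6 was below the filter. Pgghg (-0.23), B4galnt4 (-0.88, adjusted p = 8.7e-04 from limma) and Pkp3 (-0.66, adjusted p = 0.0044 from limma) were not 2-fold on the log2(FPKM + 1) scale. B4galnt4 is a low gene, at 2.34 and 2.54 FPKM in WT, against 0.9 and 0.83 FPKM in R111A. It passed the filter through WT alone, so its p-value is a description.

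Paralogues can share reads, which makes the split between them uncertain. The coding sequences of Ifitm2 and Ifitm3 were identical at 76.3% of 435 aligned positions, those of Ifitm1 and Ifitm3 at 64.0% of 411 and those of Ifitm1 and Ifitm2 at 60.4% of 432. Of the 606 windows of 50 bases in the Ifitm2 transcript, 294 (48.5%) also occurred in transcripts of other genes. These were 7 genes, among them Ifitm3 and the overlapping gene Gm45717 on the same strand, and of the 7 only Ifitm3 was in the table. The share was 10.0% of 629 windows for Ifitm3 and 6.4% of 833 windows for Ifitm1, and no window of Crabp2 or Pros1 was shared. How many fragments matched several of these genes is not known, which bears most on Ifitm2, the gene with the largest shared part.

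The start regions of the genes are shown because the IFITM genes moved in opposite directions although all are interferon-stimulated genes. The 150 bases before each start site (RefSeq, GRCm38.p6, on the strand of the gene) are given from 5′ to 3′, for Pros1 from chr16:62854157-62854306 (plus strand), Ifitm1 from chr7:140967926-140968075 (plus strand), Ifitm2 from chr7:140955962-140956111 (minus strand) and Ifitm3 from chr7:141010745-141010894 (minus strand). Of the 5 genes, 4 matched the promoter table, and Crabp2 did not. For Ifitm1 and Ifitm2 the start site of that table lies inside the span of the gene given above. Capitals mark matches to the core of the interferon-stimulated response element (ISRE; GAAA, any 2 bases, GAAA), to TTCNNNGAA, the gamma-activated sequence (GAS), or to AGGTCA, the hexamer read by retinoic acid receptors, all searched on both strands.
Pros1: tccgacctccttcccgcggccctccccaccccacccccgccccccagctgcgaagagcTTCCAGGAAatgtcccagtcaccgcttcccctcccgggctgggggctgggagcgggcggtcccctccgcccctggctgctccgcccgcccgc
Ifitm1: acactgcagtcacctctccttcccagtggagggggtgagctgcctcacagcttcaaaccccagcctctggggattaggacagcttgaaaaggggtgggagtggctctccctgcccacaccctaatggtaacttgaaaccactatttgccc
Ifitm2: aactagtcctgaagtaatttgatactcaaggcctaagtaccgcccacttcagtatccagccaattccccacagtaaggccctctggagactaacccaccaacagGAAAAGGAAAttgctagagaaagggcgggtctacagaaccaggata
Ifitm3: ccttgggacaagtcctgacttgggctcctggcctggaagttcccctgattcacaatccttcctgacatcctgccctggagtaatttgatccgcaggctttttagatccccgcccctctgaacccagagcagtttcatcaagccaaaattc

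Ifitm2 held 1 ISRE core, starting 46 bases before its start site. Ifitm3 held its matches just after the start site, within its first 30 bases (chr7:141010715-141010744, minus strand), as 2 ISRE cores and 1 GAS, of which the GAS and the second core overlap.
Ifitm3: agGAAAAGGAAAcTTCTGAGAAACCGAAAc
Pros1 held 1 GAS, starting 92 bases before its start site. Ifitm1, which was higher in R111A cells, held none of the 3 motifs in its window of 250 bases before to 50 bases after the start. AGGTCA was found in none of the 4 windows. Of 32851 promoters of the same length, 3.44% held the ISRE core, 8.3% the GAS and 16.26% AGGTCA. These are matches of letters, and no binding was measured.

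Regnase-1 is known to bind stem-loops in 3'UTRs, so stem-loops were predicted with the criteria of the study's methods: 100-nt pieces folded with RNAfold, a stem of at least 3 pairs with at least 1 GC pair, and a loop of 3 to 6 nt that holds pyrimidine-purine-pyrimidine. The study's further check, which folds the whole mRNA, is not part of the counts given here. The 3'UTRs of Crabp2 (339 nt), Ifitm2 (148 nt) and Ifitm3 (139 nt) held 0 such elements. Pros1 (1153 nt) held 1, and Ifitm1 (199 nt), the gene that was higher in R111A cells, held 3. They are printed with the loop in capitals, with bases counted from 1 after the stop codon.
Pros1, bases 371 to 383: agucCACGUgacu
Ifitm1, bases 1 to 26: ugugagauguCUUGCAacaucucaca
Ifitm1, bases 134 to 146: ugugaCACucaca
Ifitm1, bases 176 to 186: cacGUGCUgug
The element of Ifitm1 that begins at base 1 has a stem of 10 pairs. Over 9626 tested genes with an annotated 3'UTR, 80.7% held at least 1 element, with 2.71 per kb and a median 3'UTR of 997 nt. The rate was 0.87 per kb for Pros1 and 15.1 per kb for Ifitm1. The counts depend on where the pieces begin: with pieces shifted by 50 bases, a check added after the data were seen, Pros1 held 3, Ifitm1 held 2, Ifitm3 held 1, and Crabp2 and Ifitm2 again held 0. Binding of these mRNAs by Regnase-1 was not tested here. The study screened for mRNAs bound by Regnase-1 in activated CD4+ T cells with an RNA-editing assay (HyperTRIBE), and those data were not read here.

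Other genes of the retinoic acid pathway were read beside Crabp2, in lists of genes by role. Among the other retinoid-binding proteins, Fabp5 was the 1 gene above the filter, and it fell. It was at 148.98 and 154.97 FPKM in WT, against 29.04 and 39.12 FPKM in R111A (log2 fold change -2.14, SE 0.16, adjusted p = 2.3e-05 from limma). Crabp2 and Fabp5 were thus at nearly equal levels in WT cells, with ratios of 1.025 and 1.013, and fell unequally, to ratios of 0.569 and 0.546 in R111A cells. Their summed level went from 302 and 312 FPKM to 45.6 and 60.5 FPKM. Rbp4, Rbp7 and Stra6, which bind or import retinol, were at or below 0.68 FPKM in every library. Among the other 15 genes of the intracellular lipid-binding family, 8 were in the table, 4 of them at 0 in all libraries, and Fabp5 was again the 1 gene tested.

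Of 15 receptors and cofactors, 13 were tested, 1 was called lower and 2 higher, and the median of the list was 0.27 in log2 fold change, against -0.12 for all genes tested, of which 8.34% were called lower and 8.52% higher. Rxra, the partner of retinoic acid receptors, fell from 8.55 and 8.36 FPKM to 1.48 and 0.88 FPKM (-2.13, SE 0.17, adjusted p = 2.9e-05 from limma). Rara, the main retinoic acid receptor of T cells, rose from 13.96 and 12.86 FPKM to 44.19 and 25.94 FPKM (1.28, SE 0.22, adjusted p = 0.0017 from limma), but by 0.90 without R111A replicate 1 and 0.96 after rescaling to TPM, less than 2-fold. Without WT replicate 2 or R111A replicate 1, 2 genes of the list were called lower. The coactivator Ncoa2 rose as well (1.36, SE 0.16). Ccnd3, Rxrb and Ncor1, the most abundant of those not called, were at 0.74, -0.46 and -0.33. Rarb and Rxrg were listed at 0.

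Of 21 genes for the synthesis and breakdown of retinoic acid, 9 were tested, with 0 called lower and 1 called higher by limma (median 0.31), beside 8.34% and 8.52% of all genes tested. At an unadjusted p under 0.05, without the 2-fold rule, 1 was lower and 4 were higher. At least 5240 of the 9831 genes tested met this p in either direction. Adh1, an alcohol dehydrogenase that can oxidize retinol, rose from 0.92 and 1.45 FPKM to 10.26 and 10.46 FPKM (2.39, SE 0.16). Adh5 (-0.59), Dhrs4 (0.10) and Rdh14 (0.51) were not called. The retinoic acid-making enzymes Aldh1a1 and Aldh1a3 were listed at 0, and Aldh1a2 was at or below 0.07 FPKM. Of 15 known target genes of retinoic acid, 4 were tested, 3 were called higher and 0 lower (median 1.92), beside 8.34% lower and 8.52% higher of all genes tested. At an unadjusted p under 0.05, which at least 5240 of the 9831 genes tested met, 4 were higher and 0 lower. Hic1 (2.08, SE 0.19), Btg2 (2.07, SE 0.13) and Itga4 (1.77, SE 0.14), which encodes an integrin chain of gut homing, rose, and Itgb7 was at 0.85. Cyp26a1, which breaks retinoic acid down and is a classical target, was at 0 in both WT libraries, against 0.79 and 0.58 FPKM in R111A, below the filter. Genes of this list have other regulators as well, and retinoic acid was not measured.

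The partners of protein S were low in these cells. Among 7 other ligands and receptors of the TAM system, 3 were tested, and 0 were called lower or higher by limma (median 0.68), beside 8.34% and 8.52% of all genes tested. At an unadjusted p under 0.05, which at least 5240 of the 9831 genes tested met, 1 was lower and 2 were higher. Tyro3, the lower one, passed the filter through WT alone, so its value is a description. It was at 2.44 and 2.75 FPKM in WT, against 0.97 in both R111A libraries (-0.87, SE 0.14). Axl was at 2.92 and 2.83 FPKM in WT, against 5.77 and 6.11 FPKM in R111A (0.84, SE 0.14). The other classical ligand Gas6 and the receptor Mertk were listed at 0 in all libraries. Pros1 was thus the 1 classical TAM ligand seen in WT cells.

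Protein S needs gamma-carboxylation, which depends on vitamin K. Of 7 genes of this cycle and of secretion, 6 were tested, 1 was called lower and 1 higher (median -0.53), beside 8.34% and 8.52% of all genes tested. Vkorc1, which recycles vitamin K, fell from 18.97 and 20.42 FPKM to 8.97 and 7.86 FPKM (-1.14, SE 0.14), and Nqo1, a quinone reductase that passed the filter through R111A alone, was at 0.4 and 0.45 FPKM in WT, against 2.38 and 2.34 FPKM in R111A (1.24). Neither was 2-fold with a pseudocount of 5 FPKM (-0.88 and 0.44). Calu (-0.57), Furin (-0.53) and Vkorc1l1 (-0.41) were not called. Of 21 coagulation partners and related proteins, 3 were tested, 1 was called lower and 1 higher (median -0.13), beside the same background. These were Tfpi, a coagulation inhibitor (-1.03, SE 0.22), and Prrg2 (1.22, SE 0.20), and Prrg4 was at -0.13. The call of Tfpi was lost without WT replicate 2 (-0.96), without R111A replicate 1 (-0.67) and with median-of-ratios factors (-0.95), that of Prrg2 without WT replicate 2 (0.94), and both were under 2-fold with a pseudocount of 5 FPKM (-0.73 and 0.58). After rescaling to TPM, Prrg2 was at 1.00 and not called. Of 18 genes for the exposure and recognition of phosphatidylserine, the lipid that TAM ligands bridge to, 6 were tested, and 0 were called lower or higher by limma (median -0.13), beside the same background. At an unadjusted p under 0.05, which at least 5240 of the 9831 genes tested met, 1 was lower and 2 were higher. Without R111A replicate 2, 1 gene of the list was called higher. Tmem30a (-0.12), Anxa5 (0.38) and Atp11a (-0.72) were the most abundant of them.

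Interferon-stimulated genes other than IFITMs mostly did not share the fall of Ifitm2 and Ifitm3. The list held 42 symbols for 41 genes, since Rigi and Ddx58 name the same gene. Of these, 31 were tested, 17 were called higher and 0 lower by limma, and the median of the list was 1.02 in log2 fold change, against -0.12 for all genes tested. At an unadjusted p under 0.05, 23 were higher and 1 was lower. At least 5240 of the 9831 genes tested met this p in either direction. For the calls, the background was 8.52% higher. Of the 17, 9 had a WT mean below 1 FPKM and so passed the filter through R111A alone. The number called higher was 7 with a pseudocount of 5 FPKM and 9 with a filter at 5 FPKM, and after rescaling to TPM 12 were called higher and 1 lower. Over all genes tested, 386 of 9831, 521 of 7648 and 580 of 9891 were called higher at these settings. Ifit3, an antiviral RNA-binding protein, was among the 9 with a WT mean below 1 FPKM, as were Oasl2 (3.01) and Ddx58 (2.23). Ifit3 was at 0.52 and 0.7 FPKM in WT, against 13.71 and 12.79 FPKM in R111A (3.15). The values of these genes are a description. Rtp4 (2.66, SE 0.21), Isg20 (2.57, SE 0.16) and Ifi27 (1.91, SE 0.13), with WT means above 1 FPKM, rose. The most abundant genes not called were Ifi47 (-0.05), Ifi27l2a (0.78) and Samhd1 (0.94). Ifitm1, at 1.85, lay on the side of these genes, while Ifitm2 (-3.48) and Ifitm3 (-1.33) lay below the lowest of the 31 tested (-0.75) on this log2(FPKM + 1) scale. Ifitm2 was picked for its fall in these same values, so its place is built in. Ifitm1 passed the filter through R111A alone and Ifitm3 through WT alone, so their places are a description.

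Of 16 interferon receptors and signaling genes, 15 were tested, 4 were called higher and 1 lower (median 0.11), beside 8.52% and 8.34% of all genes tested. Irf7, a transcription factor of the interferon response, rose from 2.97 and 1.84 FPKM to 15.55 and 9.95 FPKM (2.0, SE 0.23, adjusted p = 1.9e-04 from limma). Ifngr1, a chain of the interferon-gamma receptor, rose as well (1.70, SE 0.15), as did Usp18 (1.46, SE 0.23) and Stat2 (1.15, SE 0.19). Ifng, the cytokine itself, fell from 17.34 and 16.1 FPKM to 7.2 and 7.3 FPKM (-1.10, SE 0.14). Usp18 (0.69), Stat2 (0.80) and Ifng (-0.83) were under 2-fold with a pseudocount of 5 FPKM, and Stat2 also without R111A replicate 1 (0.91) and after rescaling to TPM (0.86). Without R111A replicate 1, 3 genes of this list were called lower. Irf1 (-0.27), Jak1 (0.36) and Jak2 (0.11) were not called.

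Of the other 11 genes of the CD225 family, to which the IFITMs belong, 8 were in the table and 1 was tested. Prrt2 was at 0.64 and 0.47 FPKM in WT, against 2.19 and 1.7 FPKM in R111A (0.92, SE 0.15), under 2-fold on the log2(FPKM + 1) scale, and it was called without R111A replicate 2, though it passed the filter through R111A alone. Ifitm10 was at 0.06 FPKM in both WT libraries and at 0.82 and 0.43 FPKM in R111A, below the filter. Of 11 partners and modifiers of IFITM proteins, 10 were tested, 2 were called higher and 0 lower by limma (median 0.04), beside 8.52% and 8.34% of all genes tested. At an unadjusted p under 0.05, which at least 5240 of the 9831 genes tested met, 2 were higher and 3 lower. The tetraspanins Cd9 (1.49, SE 0.14) and Cd53 (1.04, SE 0.16) rose, but Cd53 was under 2-fold without WT replicate 1 (0.98), without R111A replicate 2 (0.81) and after rescaling to TPM (0.70). Without WT replicate 2 or R111A replicate 1, 1 gene of the list was called lower. Vcp (-0.83), Cd82 (0.06) and Vapa (-0.62) were not called.

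**Figure D4:**
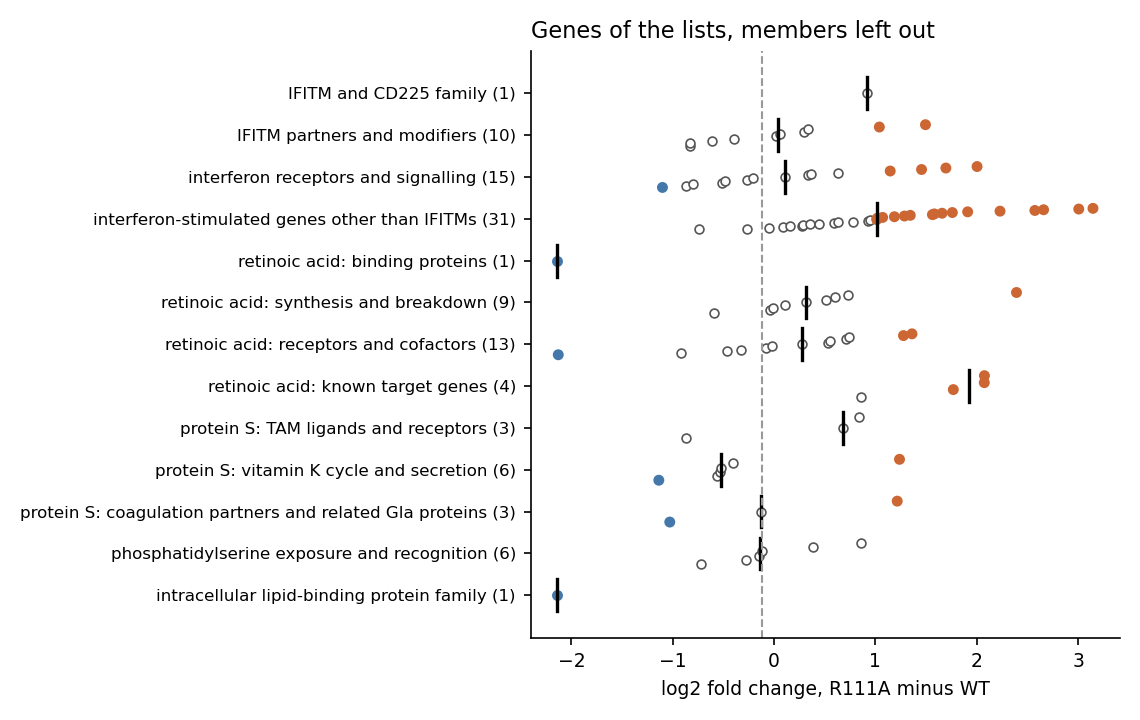
Log2 fold change (R111A minus WT) of each tested gene of the 13 lists, without the 5 genes themselves, and with the number tested in parentheses. Orange points were called higher, blue points lower and open points not; black bars are list medians and the dashed line is the median of all genes tested (-0.12). The interferon-stimulated genes (median 1.02) lie mostly to the right of that line.

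Markers of other cells were read in the same libraries. Of 9 markers of Tregs, 9 were tested, 5 were called lower and 0 higher by limma, beside 8.34% lower and 8.52% higher of all genes tested. At an unadjusted p under 0.05, which at least 5240 of the 9831 genes tested met, 6 were lower and 1 higher. In each library, 8 or more markers of Tregs were above 1 FPKM. Foxp3, which defines them, was at 11.31 and 8.78 FPKM in WT, against 2.86 and 1.86 FPKM in R111A (log2 fold change -1.72, adjusted p = 1.5e-04 from limma). Ctla4 (-1.90), Lrrc32 (-1.41) and Tnfrsf18 (-1.73) fell too, and Il10 (-2.0) was called lower but passed the filter through WT alone. Il2ra (-0.11), Ikzf2 (-0.35) and Nrp1 (-0.33) were not called, nor was Capg, which was higher (0.58). The summed level of the 9 markers was 735 and 784 FPKM in WT and 740 and 725 FPKM in R111A. Capg, the most abundant, held 334 and 366 FPKM of it in WT and 537 and 512 FPKM in R111A. The part of Tregs in the fall of Crabp2, Pros1, Ifitm2 and Ifitm3 was not tested.

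Markers of NK cells, myeloid cells, erythroid cells and platelets had higher sums in R111A libraries but were partial. Klrd1, Eomes, Gzma, Lyz2, Fcer1g, Hba-a1, Itga2b and, of the B cell markers, Cd79a had WT means below 1 FPKM, so they passed the filter through R111A alone and had to differ. Their calls are given as a description, and 8.34% of all genes tested were called lower and 8.52% higher. The libraries came from FACS-sorted CD4+ T cells, and the purity of the sort is not given. Of 8 NK cell markers, 3 were tested and all 3 called higher, and their summed level went from 2.13 and 1.32 FPKM to 22.3 and 22.0 FPKM. Klrd1, the most abundant of them in R111A, was at 12.14 and 13.59 FPKM, while Ncr1 was at or below 0.3 FPKM in every library. Of 15 myeloid markers, 4 were tested and 3 called higher, and their sum went from 7.24 and 4.44 FPKM to 21.0 and 16.8 FPKM. Cd68 led them in R111A at 8.89 and 6.81 FPKM, Csf1r was at or below 0.07 FPKM, and S100a9 and Csf3r were listed at 0. Tyrobp, the tested myeloid marker not called, was at 2.94 and 0.63 FPKM in WT, against 0.85 and 0.97 FPKM in R111A (-0.41), and Mpeg1 was at 0.7 and 0.73 FPKM in WT, against 0.37 and 0.33 FPKM in R111A. Of 8 erythroid markers, Hba-a1 alone was tested and called higher, at 12.26 and 11.74 FPKM of a sum of 13.2 and 13.0 FPKM in R111A, against a sum of 0.66 and 0.7 FPKM in WT. Hbb-bs and Hba-a2 were listed at 0 in all libraries. Of 10 markers of megakaryocytes and platelets, 2 were tested and Itga2b was called higher, at 9.92 and 10.24 FPKM of a sum of 12.4 and 12.6 FPKM in R111A, against a sum of 1.68 and 1.37 FPKM in WT. Pf4 and Gp9 were listed at 0.

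B cell sums were close between the groups, and the endothelial and stromal sum was higher in R111A through Pecam1. Of 12 B cell markers, 4 were tested and Cd79a was called higher (background 8.52%), at 2.99 and 2.37 FPKM in R111A, while the sums were 17.1 and 19.1 FPKM in WT and 20.3 and 21.3 FPKM in R111A, led by H2-Aa at 7.53 to 9.85 FPKM. Of 9 measured endothelial and stromal markers, 1 was tested, Pecam1, and called higher, at 18.46 and 12.61 FPKM of a sum of 18.5 and 12.6 FPKM in R111A, against a sum of 5.8 and 5.01 FPKM in WT, and Cdh5 was at or below 0.03 FPKM. The part of such cells in the higher level of Ifitm1 was not tested.

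**Figure D5:**
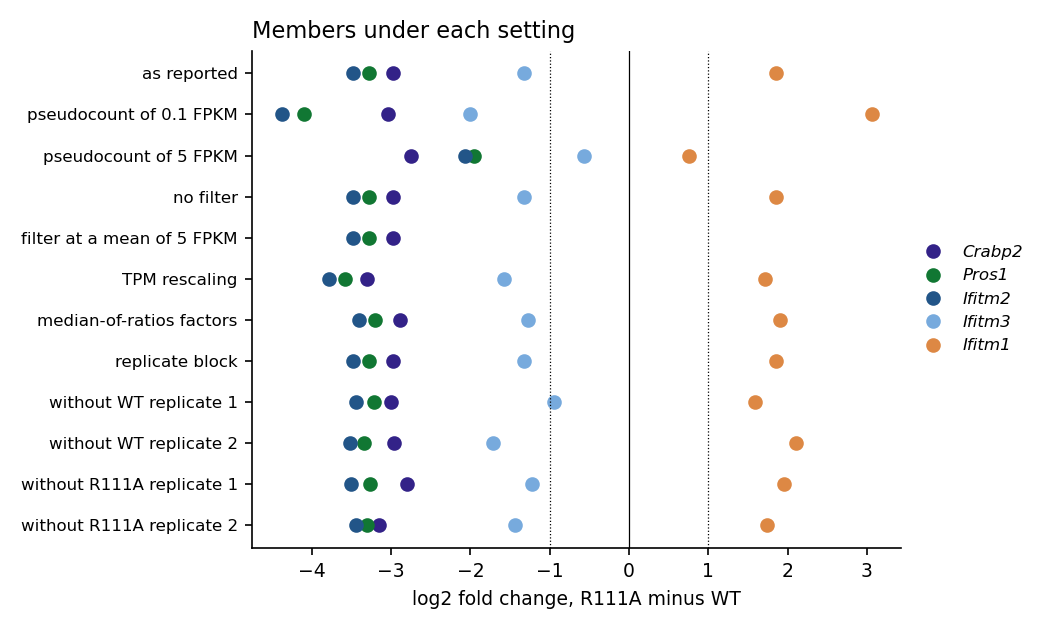
Log2 fold change (R111A minus WT) of the 5 genes under each setting of the analysis, with dotted lines at 2-fold. No gene changes side under any setting; Ifitm3 crosses the 2-fold line with a pseudocount of 5 FPKM (-0.57) and without WT replicate 1 (-0.94), and Ifitm1 with a pseudocount of 5 FPKM (0.76). Both are absent from the row with a filter at 5 FPKM, where they were not tested.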

How the data were processed

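The 2 WT and 2 R111A RNA-seq libraries were grouped by the sample labels. The authors selected polyA RNA, filtered adaptors and low-quality bases, aligned reads to mm10 with Bowtie2 (version 2.4.4, per the submitters' processing notes) and computed FPKM with RSEM (version 1.2.28). Every column of the deposited FPKM table was used. FPKM values are not counts, so log2(FPKM + 1) was fitted with limma (version 3.58.1 in R 4.3.3; lmFit, eBayes with trend, Benjamini-Hochberg adjustment) where a gene's mean reached 1 FPKM. The fit was tested on simulated data. Calls needed an adjusted p below 0.05 and a change of 2-fold or more. The members and the lists were chosen with earlier results of these data known.

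Genes named were the 5 members, Zc3h12a, up to 6 called genes with the largest change and up to 3 abundant genes not called in each list, 3 neighbors on each side of a member, the 3 nearest by Euclidean distance and those next in the order of fold change. Other genes of the lists, such as those listed at 0, and the markers were named once their values had been seen. Coordinates came from RefSeq GRCm38.p6, which matched 16107 of 16142 genes, and transcripts from GENCODE. 3'UTRs were folded with RNAfold (version 2.7.2). Coding sequences were aligned with biopython 1.88, and other steps used python 3.11.15, pandas 2.3.3 and numpy 2.4.6. Alternatives were pseudocounts of 0.1 and 5 FPKM, no filter, a filter at 5 FPKM, rescaling to TPM, median-of-ratios factors, a replicate block, leaving out each library and, chosen after seeing the data, folding windows shifted by 50 bases.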

Additional observations from a re-analysis of the deposited data

How the results depend on the processing

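No direction of Crabp2, Pros1, Ifitm1, Ifitm2 or Ifitm3 reversed under any alternative run. With a pseudocount of 5 FPKM, which shrinks low values by construction, the log2 fold changes were -2.75 (Crabp2), -1.95 (Pros1), -2.07 (Ifitm2), 0.76 (Ifitm1) and -0.57 (Ifitm3), and 402 genes were called lower and 386 higher. Called genes then numbered 0 lower and 2 higher among interferon receptors and signaling, 7 higher among interferon-stimulated genes, and 0 in either direction in the vitamin K and coagulation lists. With 0.1 FPKM, Pros1 was at -4.10, Ifitm2 at -4.38, Ifitm1 at 3.06 and Ifitm3 at -2.0. Of the 9831 genes tested, 1068 were then called lower and 998 higher. In the lists, 1 gene was called higher in the CD225 family, 2 higher for retinoic acid synthesis and breakdown, 1 lower and 1 higher among TAM ligands and receptors, and 1 higher for phosphatidylserine. With no filter, 1 gene was also called higher for phosphatidylserine, beside 893 of all 14448 genes tested. A filter at 5 FPKM, which tests fewer genes (7648), gave 521 higher, with 9 higher interferon-stimulated genes, 0 lower retinoic acid receptors and cofactors, and 0 higher vitamin K and coagulation genes; Ifitm1 and Ifitm3 could not be tested there.

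Rescaling to TPM moved the median of all genes from -0.12 to -0.42. Crabp2 was then at -3.31, Pros1 at -3.58 and Ifitm2 at -3.78, or -2.89, -3.16 and -3.36 relative to that median, and 1756 genes were called lower. Called genes numbered 2 lower and 1 higher for IFITM partners, 3 lower for interferon signaling, 1 lower for interferon-stimulated genes, 2 lower and 1 higher for retinoic acid receptors and cofactors, 1 lower for TAM, 0 higher for coagulation and 1 lower for phosphatidylserine. With median-of-ratios factors, Pros1 was at -3.21, Ifitm2 at -3.41, and 0 coagulation genes were lower. Folding windows shifted by 50 bases, an alternative chosen after seeing the data, gave 3 stem-loops for Pros1 and 1 for Ifitm3. The cause was not tested.

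When each library was left out in turn, the lone library of a group being assumed to vary like the others, Ifitm3 ranged from -1.71 to -0.94 and Ifitm1 from 1.59 to 2.11. Counts of calls ranged from 824 to 884 lower and from 834 to 851 higher over all genes, from 0 to 1 higher in the CD225 family, from 0 to 1 lower and 1 to 2 higher for IFITM partners, from 1 to 3 lower for interferon signaling, from 1 to 2 lower and 1 to 2 higher for retinoic acid receptors and cofactors, from 0 to 1 lower and 0 to 1 higher for coagulation, and from 0 to 1 higher for phosphatidylserine. With the replicate number as a replicate block, 821 genes were lower and 841 higher, and Crabp2 stayed at -2.98, Pros1 at -3.28, Ifitm2 at -3.48, Ifitm3 at -1.33 and Ifitm1 at 1.85. The numbers are not said to pair the libraries, and deviations of same-numbered libraries correlated at 0.111 across 9831 genes, which are not independent replicates. With 2 libraries per group and no counts, the precision of values near 1 FPKM is not known.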
